A study of Mus musculus with 15 samples.

Results

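Livers of mice fed a ketogenic diet were compared with livers of mice fed a high-fat diet, a comparison of 2 fat-rich diets that differ in how much fat they hold. The comparison used 10 of the 15 libraries of the series: ketogenic replicates 1 to 5 (89.9% fat) against high-fat replicates 1 to 5 (60% fat), chosen by the diet in their labels. All came from male wild-type C57BL/6J mice that were 15 weeks old when the diet began and stayed on it for 9 months. No group in this comparison had a low-fat diet, and neither the other ingredients of the diets nor the feeding state at death are given in the sources used here. Poly(A) RNA of snap-frozen whole liver was sequenced with a kit that keeps strand. Of the 56980 genes counted, 14627 had enough reads to be tested. The 4 usable libraries of the control diet (10% fat) entered the fit to steady the estimate of spread, and their levels are given as background; the fifth was excluded by the submitters as contaminated.

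A liver that receives much carbohydrate turns part of it into fatty acids: glucose is phosphorylated and broken down to pyruvate, citrate carries the carbon out of mitochondria, and fatty acid synthase, elongases and desaturases build the chains. Insulin and glucose drive these genes through the transcription factors SREBP-1c and ChREBP, while dietary polyunsaturated fat lowers them. When carbohydrate is scarce, the liver burns fatty acids and exports part of the carbon as ketone bodies, a programme under the fatty acid receptor PPAR-alpha. The hepatocyte is also a secretory cell, and chaperones of its endoplasmic reticulum (ER) rise under the unfolded protein response when folding demand grows.

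Total counts of the 10 libraries ran from 16329425 to 25349148. Levels below are CPM (counts scaled to library size after TMM normalization), and means are given ± SD with n = 5 high-fat, n = 4 control and, for ketogenic replicates 1 to 4, n = 4 libraries. The albumin gene, a defining hepatocyte transcript, took 6.00% to 9.21% of counts, so the tissue label held in each library. Whether the libraries of a diet came from different mice is not in the labels, and p-values therefore measure the spread between these samples. Ketogenic replicate 5 stood apart. It had 15316 genes with at least 10 counts against 13518 to 14387 in the other 9. Its albumin share was the lowest and its TMM factor (1.22) the highest. It was also the highest of all 10 libraries in 22.0% of tested genes (3219), against 17.7% for ketogenic replicate 3. Ketogenic replicate 5 was the lowest in 15.5%, against 17.5% for ketogenic replicate 3. Along principal component 1 (36.8% of variance) it lay at -60.1, beyond the high-fat libraries (-26.9 to 24.3) while the other ketogenic libraries were spread from -3.999 (replicate 1, inside the high-fat range) through 17.6 (replicate 2, also inside) to 42.5 and 54.5 (replicates 4 and 3). On the second component (18.3%) it lay at 31.6 with the other ketogenic libraries (0.61 to 37.3), and all 5 high-fat libraries were negative (-33.2 to -7.54). Results are therefore given with all 5 ketogenic libraries first and then without replicate 5.

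**Figure D1:**
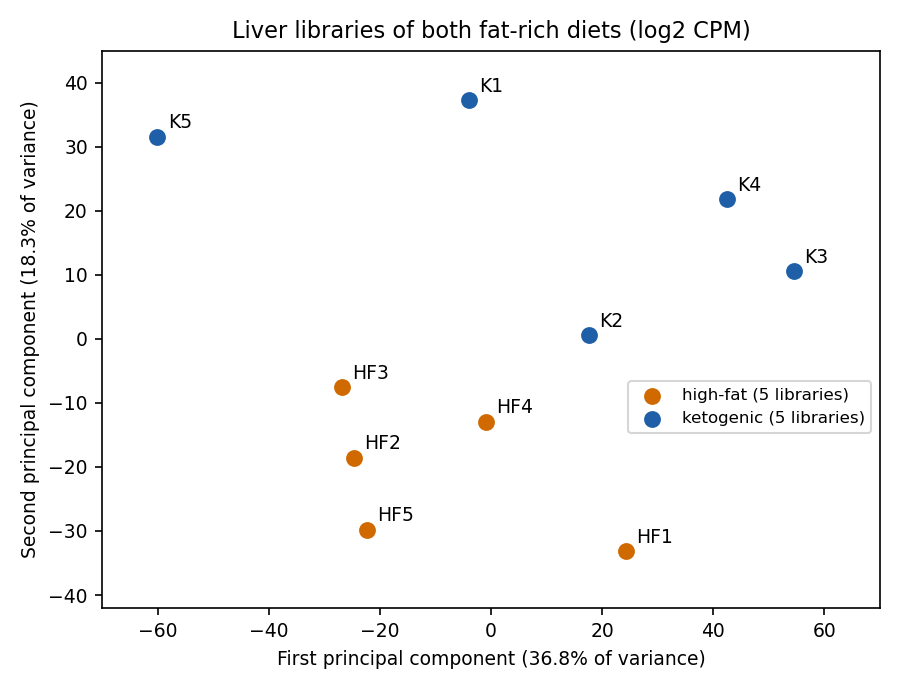
Principal components of log2 CPM over the 14627 tested genes, with 1 point per library (HF high-fat, K ketogenic, with replicate number). On the first component K5 lies at -60.1, K1 and K2 within the high-fat range (-3.999 and 17.6) and K3 and K4 above it (54.5 and 42.5), while on the second all 5 ketogenic libraries lie above 0 and all 5 high-fat libraries below.

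With all 5 ketogenic libraries, 9 genes passed an adjusted p of 0.05 (Benjamini-Hochberg) in the quasi-likelihood test of edgeR, which is 0.0615% of the 14627 tested. In this set 8 genes fell (0.0547%) and 1 rose (0.00684%). All 9 had no overlap between both diets, as had 258 genes (1.76%) in all. At an unadjusted p under 0.05 there were 1273 genes. The split of 1 higher and 8 lower became 4 and 11 with library totals in place of TMM, and 62 and 111 with DESeq2, which called 173 genes and kept all 9. With only the 10 libraries of these diets in the fit, 1 gene was called. The median log2 fold change (ketogenic minus high-fat) over all tested genes was 0.02.

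Cyp17a1, a P450 enzyme of steroid hormone synthesis, fell in the ketogenic group. It stood at 76.5, 105, 61.3, 41.8 and 69.9 CPM in high-fat replicates 1 to 5 and at 5.98, 8.98, 3.42, 6.48 and 14.3 CPM in ketogenic replicates 1 to 5 (difference -3.17 ± 0.33 SE in log2 units, adjusted p = 0.00201), a fitted fall of 8.99-fold. Every ketogenic library lay below every high-fat library, with replicate 5 the highest of the ketogenic ones, and the control mean lay between both diets (16.1 ± 2.71 CPM). Its call held when any 1 of the 10 libraries was left out. Chrna4, a subunit of a nicotinic acetylcholine receptor, stood at 4.68, 2.31, 7.10, 1.62 and 2.09 CPM on the high-fat diet and at 0.1698, 0.0966, 0, 0.138 and 0.622 CPM on the ketogenic diet (difference -3.96 ± 0.64 SE in log2 units, adjusted p = 0.0322). Lrtm1, a membrane protein with leucine-rich repeats, stood at 11.9, 7.29, 4.61, 9.35 and 2.98 CPM and at 0.764, 0.435, 1.07, 0.873 and 1.87 CPM (difference -2.82 ± 0.43 SE in log2 units, adjusted p = 0.0224). Both were low in ketogenic livers, and in both replicate 5 had the highest ketogenic value without reaching the high-fat range.

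The remaining called genes included enzymes of lipid metabolism. Fads1, a desaturase that makes long polyunsaturated fatty acids, stood at 834, 1067, 958, 762 and 761 CPM in high-fat and 448, 548, 439, 447 and 472 CPM in ketogenic replicates 1 to 5 (difference -0.90 ± 0.12 SE in log2 units, adjusted p = 0.0149). Cyb5r3, the reductase that supplies electrons to microsomal desaturases, stood at 656, 698, 693, 736 and 663 CPM against 347, 357, 450.3, 424 and 459.7 CPM (difference -0.76 ± 0.11 SE in log2 units, adjusted p = 0.0223). Replicate 5 had the second highest Fads1 level of 5 ketogenic values that spanned less than the high-fat ones. Its Cyb5r3 level was the highest of the 5 ketogenic values, below every high-fat library. Mbl2, a lectin that starts complement activation, stood at 337, 274, 235, 304 and 337 CPM against 96.1, 150.1, 189, 139 and 166 CPM (difference -1.01 ± 0.17 SE in log2 units, adjusted p = 0.0322). Prob1, a proline-rich protein of little-known function, had a mean of 20.7 ± 1.52 CPM against 13.3 ± 1.45 CPM (n = 5 each, difference -0.63 ± 0.10 SE in log2 units, adjusted p = 0.0307). The remaining calls are an unnamed clone and a predicted gene, named after their values were seen: 1810008I18Rik fell from 71.1 ± 21.6 to 33.5 ± 2.33 CPM (adjusted p = 0.0224), and Gm15638 rose from 4.74 ± 0.877 to 10.2 ± 1.57 CPM (adjusted p = 0.0223). Only 1 call was left without high-fat replicate 2, or without ketogenic replicate 1 or 4, 2 without ketogenic replicate 2, and 5 without high-fat replicate 4 or 5. The highest adjusted p of the other 8 genes over the 10 refits ran from 0.0861 (Fads1) to 0.176 (Chrna4).

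**Figure D2:**
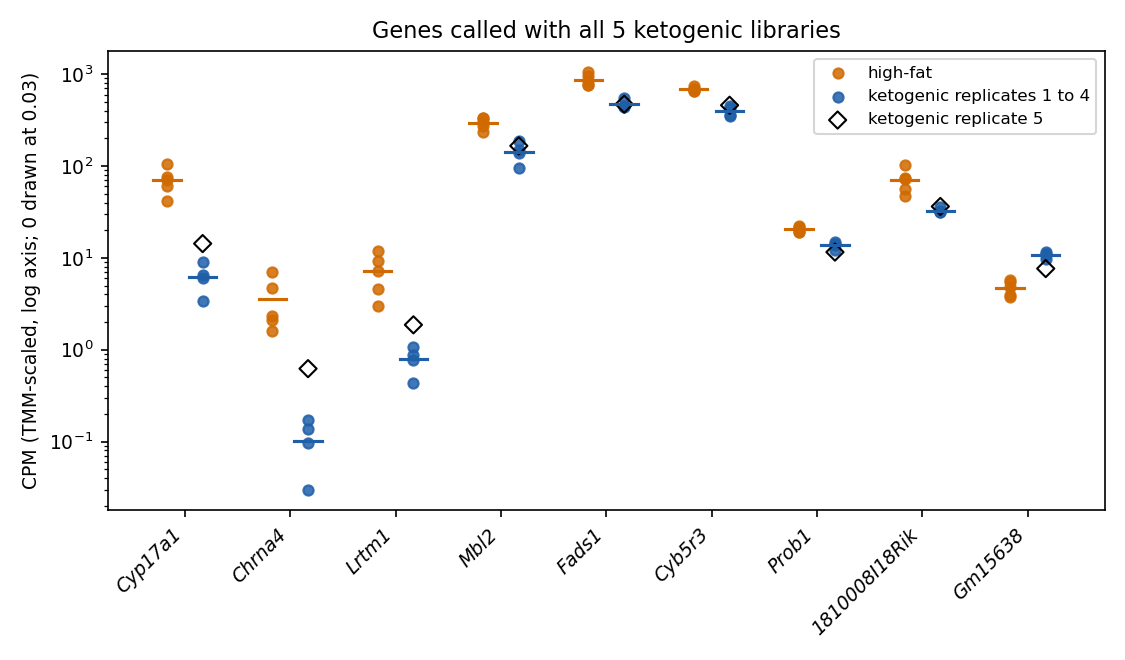
CPM on a log axis of the 9 genes called with all 5 ketogenic libraries, 1 point per library, with lines at the means of the high-fat libraries and of ketogenic replicates 1 to 4; a value of 0 is drawn at 0.03. Ketogenic replicate 5, the open diamond, lies outside the high-fat range in each of the 9 genes, for Cyp17a1 at 14.3 CPM against a high-fat minimum of 41.8.

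Without ketogenic replicate 5 the same test called 315 genes, 2.19% of the 14400 then tested, with 135 higher (0.938%) and 180 lower (1.25%). All 9 genes above were among them. Of the 315, 37 were at least 2-fold higher and 85 at least 2-fold lower on the ketogenic diet. Levels of both diets did not overlap in 971 genes (6.64%) once replicate 5 was set aside. The median log2 fold change over all tested genes was -0.00. Replicate 5 was singled out by its expression, so these counts are conditional on that choice, and DESeq2 raised them to 400 higher and 466 lower. For each of the 315 genes, replicate 5 was placed on a line from 0, the high-fat mean, to 1, the mean of ketogenic replicates 1 to 4. Its median place was -0.0660, with quartiles of -0.52 and 0.32. Replicate 5 lay nearer to the ketogenic mean in 50 genes and inside the high-fat range in 151. In 176 genes it lay at the high-fat mean or past it, away from the ketogenic mean. The labels number the libraries, and among those numbered up to 9, which hold high-fat and ketogenic replicates 1 and 2 and not replicate 5, 40 genes were called (7 higher, 33 lower). Among those numbered 13 and above, 851 were called without ketogenic replicate 5 and 0 with it, where 663 genes had an unadjusted p under 0.05. Leaving out a further library moved the count from 95 (ketogenic replicate 4) to 636 (high-fat replicate 1). It was 502 without ketogenic replicate 1, 135 to 174 without high-fat replicate 2 or 5 or without ketogenic replicate 2 or 3, and 208 without high-fat replicate 3.

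Many genes of fatty acid synthesis fell in ketogenic replicates 1 to 4. Without replicate 5, 13 of 29 listed genes of de novo lipogenesis fell and 0 rose, against a background of 1.25% lower, with a median change over the list of -0.90 in log2 units. With all 5 libraries 1 of the 29 (Fads1) passed, and the median was -0.85 with 26 of 29 values negative. Scd1, the desaturase that makes oleate from saturated fatty acids, stood at 7032, 17313, 11438, 8229 and 10343 CPM in high-fat replicates 1 to 5 and at 56.2, 11.3, 9.60 and 13.97 CPM in ketogenic replicates 1 to 4 (difference -8.90 ± 0.71 SE in log2 units, adjusted p = 5.32e-05), a fitted fall of 477-fold. Ketogenic replicate 5 held 20821 CPM, the highest of the 10 libraries. With all 5, its log2 fold change was -1.38, adjusted p = 0.917. The control libraries held 14652 ± 4549.6 CPM. Its near-identical relative Scd3, named after its values were seen, stood at 1.156, 1.54, 1.46, 0.648 and 1.29 CPM on the high-fat diet, at 0, 0, 0 and 0 CPM in ketogenic replicates 1 to 4 and at 2.09 CPM in replicate 5. Reads shared between both genes could not be told apart here.

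Further enzymes of fatty acid synthesis and elongation were lower in the same 4 livers. Fasn, fatty acid synthase, stood at 2709, 2143, 1480.3, 778 and 667 CPM on the high-fat diet and at 281, 254, 253 and 343 CPM in ketogenic replicates 1 to 4 (difference -2.46 ± 0.39 SE in log2 units, adjusted p = 0.00689), with 1144 CPM in replicate 5. Elovl6, which lengthens palmitate, stood at 355, 361, 268, 184 and 140.5 CPM against 46.0, 45.1, 36.3 and 42.2 CPM (difference -2.62 ± 0.27 SE in log2 units, adjusted p = 1.68e-04), with 294 CPM in replicate 5. In both genes the 4 ketogenic values were close together and the high-fat values more widely spread, with replicate 5 inside the high-fat range. The acetyl-CoA carboxylases, which make malonyl-CoA, differed in where replicate 5 lay. Acacb, the mitochondrial form, fell from 177 ± 49.9 to 38.4 ± 16.29 CPM (difference -2.20 ± 0.30 SE in log2 units, adjusted p = 0.00215) and replicate 5, at 92.8 CPM, was below all 5 high-fat libraries. Acaca, the cytosolic form, fell from 193 ± 66.4 to 66.3 ± 17.9 CPM (difference -1.54 ± 0.27 SE in log2 units, adjusted p = 0.00955) and replicate 5, at 215 CPM, was inside their range. Acly, which splits citrate to acetyl-CoA, fell from 493 ± 272 to 172 ± 13.6 CPM (difference -1.52 ± 0.32 SE in log2 units, adjusted p = 0.0284). Elovl5, an elongase of polyunsaturated fatty acids, fell from 641 ± 235 to 225 ± 59.9 CPM (difference -1.51 ± 0.26 SE in log2 units, adjusted p = 0.00934). The call of Acly was lost without high-fat replicate 2 or any 1 of ketogenic replicates 1 to 4 (adjusted p up to 0.0851).

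Me1, which supplies NADPH to fatty acid synthesis, stood at 238, 406, 274, 225 and 239 CPM in high-fat and 120.3, 98.0, 132, 115 and 179.6 CPM in ketogenic replicates 1 to 5, with no overlap even with replicate 5 included. Its log2 fold change was -1.25, adjusted p = 0.00321 without replicate 5 and -1.10, adjusted p = 0.0613 with it. Fads2, the partner desaturase of Fads1, fell from 1423 ± 278 to 869 ± 139 CPM, and Pgd, an NADPH source of the pentose phosphate path, from 65.4 ± 6.83 to 42.4 ± 5.36 CPM, with adjusted p = 0.0363 and 0.0321. These calls were lost in refits without high-fat replicate 2 or 3 or ketogenic replicate 3 or 4, that of Pgd also without high-fat replicate 5 or ketogenic replicate 2 (adjusted p up to 0.133 and 0.137). Pnpla3, a lipid droplet protein under SREBP-1c, stood at 5.43, 3.79, 2.21, 1.01 and 1.04 CPM on the high-fat diet, at 0.0849, 0, 0.204 and 0 CPM in ketogenic replicates 1 to 4 and at 3.30 CPM in replicate 5 (difference -5.11 ± 0.94 SE in log2 units, adjusted p = 0.0176). The regulators of the pathway did not pass. Srebf1, which encodes SREBP-1c, had 463 ± 226 CPM on the high-fat diet and 229 ± 31.8 CPM in ketogenic replicates 1 to 4 (log2 fold change -1.01, adjusted p = 0.0872). Mlxipl, which encodes ChREBP, had 230.1 ± 47.4 against 227 ± 32.6 CPM (log2 fold change -0.02, adjusted p = 0.973).

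Across the list, 7 of the 13 genes had replicate 5 inside the high-fat range and 3 had it nearer to the ketogenic mean. Among the libraries numbered up to 9, 8 of 29 genes fell, with a median of -1.25. The count of 13 ran from 9 without ketogenic replicate 4 to 13 over the refits that left out a further library. The calls of Scd1, Fasn, Elovl6, Elovl5, Acaca, Acacb, Me1, Pklr and Fads1 held in all 9 of these refits, and that of Pnpla3 was lost without ketogenic replicate 2 or 4 (adjusted p up to 0.0722). Control livers had higher mean levels than high-fat livers for Fasn (4032 ± 1114 CPM), Elovl6 (849 ± 202 CPM) and Acly (1273 ± 251 CPM), and lower ones for Elovl5 (241 ± 48.7 CPM) and Fads2 (679 ± 126 CPM), differences not tested here.

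**Figure D3:**
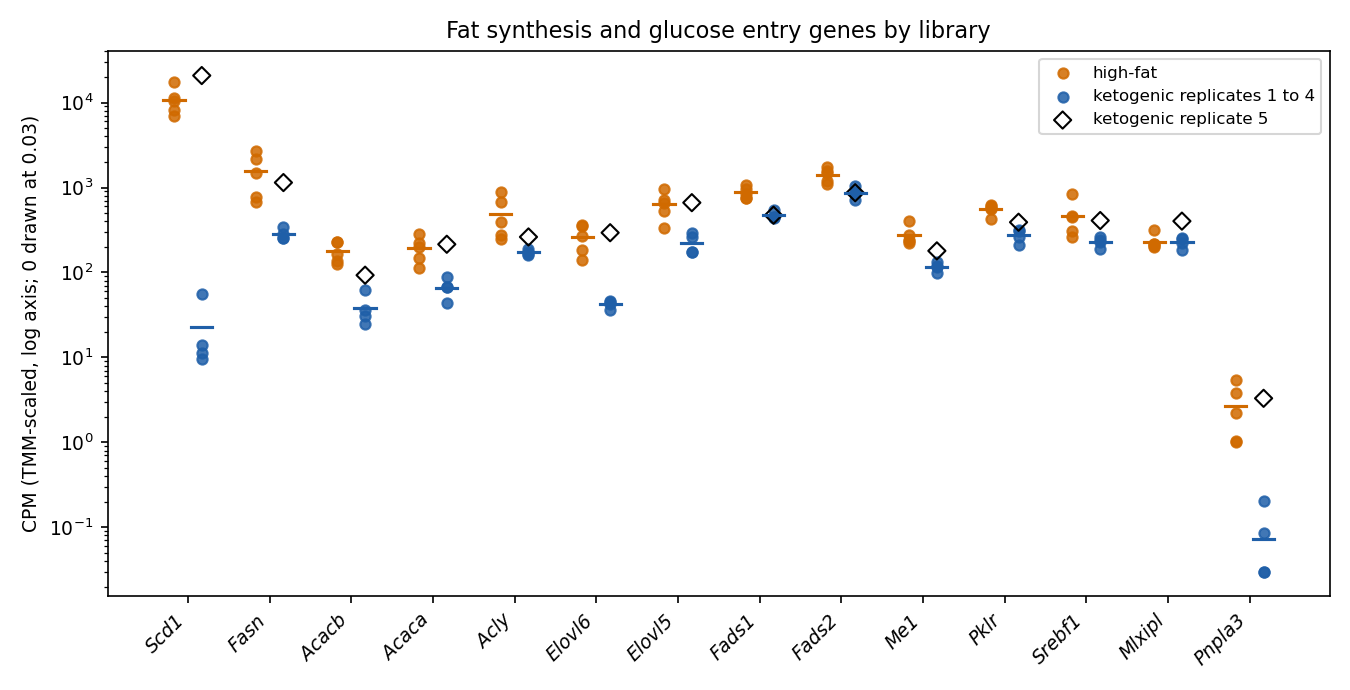
CPM on a log axis of 14 genes of fatty acid synthesis and glucose entry, 1 point per library, with lines at the means of the high-fat libraries and of ketogenic replicates 1 to 4; a value of 0 is drawn at 0.03. For Scd1, ketogenic replicates 1 to 4 lie between 9.60 and 56.2 CPM and replicate 5, the open diamond, at 20821 CPM above all high-fat libraries, whereas for Fads1 and Me1 it lies below them.

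Some genes of sugar use fell without replicate 5. Among 25 listed genes of glucose breakdown and fructose use, 8 fell and 1 rose without it (median -0.34), against a background of 1.25% lower and 0.938% higher, and 0 passed with all 5 libraries (median -0.33, 22 of 25 negative). Pklr, the liver pyruvate kinase, stood at 573, 624, 556, 601 and 422 CPM in high-fat and 210.1, 261, 304 and 315 CPM in ketogenic replicates 1 to 4 (difference -1.02 ± 0.16 SE in log2 units, adjusted p = 0.00402), and replicate 5, at 390.4 CPM, was below every high-fat library. Khk, which starts fructose use, stood at 744, 607, 447, 594 and 702 CPM against 252, 359.8, 446 and 393 CPM (difference -0.77 ± 0.17 SE in log2 units, adjusted p = 0.0284), with 433 CPM in replicate 5. In both genes all 5 ketogenic livers lay below all high-fat livers. Gapdh, a central enzyme of sugar breakdown, fell from 1549.8 ± 101 to 1049 ± 108 CPM (adjusted p = 0.0157). Gckr, a regulator of hepatic glucose use, fell to 0.711 times the high-fat level, Gpi1 to 0.785 times and Pkm, the pyruvate kinase of non-hepatocyte cells, to 0.592 times; replicate 5 had the highest Pkm level of all 10 libraries (67.4 CPM). Slc2a8, a sugar transporter, was the 1 that rose (log2 fold change 0.66, adjusted p = 0.0284), a call kept only without high-fat or ketogenic replicate 1 (adjusted p up to 0.0875).

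Single libraries carried several of these calls: 2 of the 8 falls were left without ketogenic replicate 2 or 4 and 4 without high-fat replicate 2. The call of Gpi1 held only without high-fat replicate 1 (adjusted p up to 0.155 in the other refits). Pklr kept its call in all 9. In the reverse direction of the pathway, 2 of 17 genes of gluconeogenesis and glycogen fell without replicate 5 and 0 passed with it. Over all genes 1.25% were lower without replicate 5. Fbp1, a gluconeogenic phosphatase, fell from 1147 ± 73.9 to 809.9 ± 128 CPM (log2 fold change -0.50, adjusted p = 0.0368). Pygl, which releases glucose from glycogen, fell from 604 ± 69.7 to 423 ± 52.5 CPM (log2 -0.51, adjusted p = 0.0368). Replicate 5 was nearer to the ketogenic mean in both (862 and 489.7 CPM). Both calls held only without high-fat replicate 1 or 3 or ketogenic replicate 3 (adjusted p up to 0.139 and 0.0993). Pck1, the enzyme that commits carbon to gluconeogenesis, did not pass (log2 fold change 0.27, adjusted p = 0.750 without replicate 5, 0.08, adjusted p = 0.980 with it). Slc2a4, the insulin-responsive glucose transporter of muscle and fat, was low in liver and fell further, from 7.98, 6.10, 4.75, 3.24 and 2.69 CPM to 0.340, 0.0966, 0.766 and 0.735 CPM (difference -3.33 ± 0.52 SE in log2 units, adjusted p = 0.00659), with 5.42 CPM in replicate 5.

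Many ER chaperones rose in ketogenic replicates 1 to 4. Without replicate 5, 12 of 28 genes of this list rose and 0 fell, against a background of 0.938% higher, with a median log2 fold change of 0.53. With all 5 libraries 0 passed, and the median was 0.42 with 26 of 28 values positive. Hspa5 encodes BiP, the chief ER chaperone and sensor partner of the unfolded protein response. Creld2 encodes a secreted-pathway protein that is released under ER stress, Syvn1 the ubiquitin ligase of ER-associated degradation, Derl3 a channel component of that degradation, and Hsp90b1 the ER form of the chaperone HSP90. Their promoters are shown because they hold the ER stress element, the site read by ATF6 and XBP1, which stands in capitals in the 250 bases before the transcription start. Sequences are from RefSeq (GRCm38.p6), 5′ to 3′ on the strand of the gene; CGTGG with ATTGG marks the element read on the opposite strand. Hspa5 is shown for chr2:34771840-34772089, Creld2 for chr15:88819396-88819645 and Syvn1 for chr19:6046326-6046575, all on the plus strand, and for Derl3 and Hsp90b1 only the first element, read on the strand with CCAAT.
Hspa5: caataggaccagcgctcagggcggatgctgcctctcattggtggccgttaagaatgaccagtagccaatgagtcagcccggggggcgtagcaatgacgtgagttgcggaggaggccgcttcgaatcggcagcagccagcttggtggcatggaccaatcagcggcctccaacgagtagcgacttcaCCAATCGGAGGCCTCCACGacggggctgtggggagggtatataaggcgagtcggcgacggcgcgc
Creld2: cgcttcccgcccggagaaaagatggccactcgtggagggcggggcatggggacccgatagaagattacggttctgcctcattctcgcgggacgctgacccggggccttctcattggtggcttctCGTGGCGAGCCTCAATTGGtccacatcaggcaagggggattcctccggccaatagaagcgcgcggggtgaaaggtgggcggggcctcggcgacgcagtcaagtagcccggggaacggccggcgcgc
Syvn1: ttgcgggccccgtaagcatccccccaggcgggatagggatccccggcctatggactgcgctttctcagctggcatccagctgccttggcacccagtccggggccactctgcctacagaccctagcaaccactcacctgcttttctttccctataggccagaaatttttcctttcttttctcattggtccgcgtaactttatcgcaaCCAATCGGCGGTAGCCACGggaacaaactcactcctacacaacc
Derl3: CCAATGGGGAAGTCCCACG
Hsp90b1: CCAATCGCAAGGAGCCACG
The element was searched as CCAAT, any 9 bases and CCACG on both strands. It was found upstream of 35 of 27025 genes (0.13%) and of 9 of the 23 listed ER genes that have a promoter entry (39.1%). Of the 9 genes with an entry that rose, 5 held it (55.6%). The listed genes Calr, Canx, Pdia6 and Dnajc3 also held it and did not pass without replicate 5. The element overlaps the CCAAT box by construction. The list was chosen as genes of ER chaperones and the unfolded protein response, so its share is not independent of that choice. The sterol regulatory element, searched in the same way, was found upstream of 331 of 27025 genes (1.22%). It was found upstream of 1 of 24 lipogenesis genes with an entry (4.17%) and of 0 of the 11 that fell. For cholesterol synthesis this was 1 of 18 genes (5.56%) and 1 of the 2 that rose. Of the 23 listed ER genes 1 held it (4.35%), as did 1 of the 9 that rose. A match is a run of letters and was not tested for binding.

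Creld2 stood at 35.7, 20.4, 23.3, 28.2 and 28.5 CPM in high-fat replicates 1 to 5 and at 55.5, 82.5, 133 and 124 CPM in ketogenic replicates 1 to 4 (difference 1.86 ± 0.30 SE in log2 units, adjusted p = 0.00867), with 27.6 CPM in replicate 5. Hspa5 stood at 796, 557, 542, 633 and 544 CPM against 917, 1011, 1409.9 and 1625 CPM (difference 1.01 ± 0.20 SE in log2 units, adjusted p = 0.0136), with 561 CPM in replicate 5. Syvn1 stood at 63.0, 56.0, 69.3, 61.9 and 44.8 CPM against 137, 96.2, 169 and 216 CPM (difference 1.39 ± 0.21 SE in log2 units, adjusted p = 0.00384), with 61.2 CPM in replicate 5. In each the 4 ketogenic livers lay above all high-fat livers, replicates 3 and 4 highest, and replicate 5 lay among the high-fat livers. Hyou1, a large ER chaperone, rose 2.54-fold (difference 1.35 ± 0.19 SE in log2 units, adjusted p = 0.00215), Sdf2l1, a BiP cofactor, 2.98-fold (adjusted p = 0.030), Manf, a secreted ER protein, 2.37-fold (adjusted p = 0.0138) and Derl3 2.63-fold (adjusted p = 0.00952). Dnajb9, a BiP co-chaperone induced by XBP1, rose from 51.1 ± 7.04 to 105 ± 37.1 CPM, Pdia4, a disulfide isomerase, from 154 ± 9.92 to 272 ± 37.0 CPM, and Hsp90b1 from 631 ± 56.3 to 993 ± 175 CPM, with adjusted p = 0.00763, 0.00776 and 0.0246. Sec61a1, the translocation channel, and Dnajb11, another BiP co-chaperone, rose 1.54-fold and 1.601-fold (adjusted p = 0.0274 and 0.0474).

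In all 12 genes replicate 5 lay inside the high-fat range. Control livers held 1331 ± 304 CPM of Hspa5, 76.1 ± 30.4 CPM of Creld2 and 348 ± 69.2 CPM of Hyou1, means nearer to ketogenic replicates 1 to 4 than to the high-fat livers. The median of the list in each library against the high-fat mean was 0.33, 0.50, 0.63 and 0.70 in ketogenic replicates 1 to 4, -0.07 in replicate 5, and -0.12 to 0.17 in the high-fat livers. The 12 calls became 6 without ketogenic replicate 4, 8 without ketogenic replicate 2 or 3 or high-fat replicate 2, 3 or 5, and 15 or 16 without ketogenic or high-fat replicate 1. Creld2, Syvn1, Hyou1, Derl3, Dnajb9 and Pdia4 kept their calls in all 9 refits. Hspa5 lost its call without ketogenic replicate 4 (adjusted p = 0.0660), and Manf without ketogenic replicate 3 or 4 (up to 0.0590). Sdf2l1, Sec61a1 and Dnajb11 kept their calls only without high-fat or ketogenic replicate 1 (up to 0.178). Hsp90b1 lost its call without high-fat replicate 2, 3 or 5 or ketogenic replicate 2 or 4 (up to 0.118). Among the libraries numbered up to 9 the list had 0 calls in edgeR's test and a median of 0.33.

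**Figure D4:**
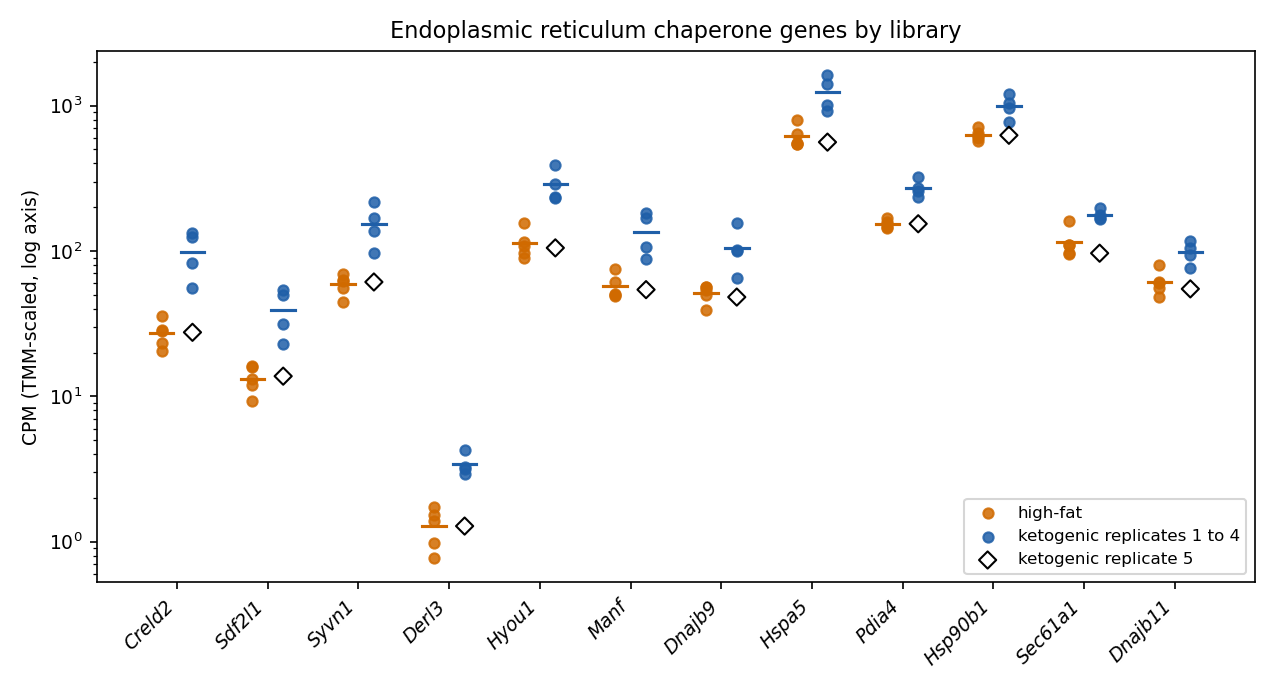
CPM on a log axis of the 12 ER genes that rose without ketogenic replicate 5, 1 point per library, with lines at the means of the high-fat libraries and of ketogenic replicates 1 to 4. Replicate 5, the open diamond, lies within the high-fat points in each gene, for Creld2 at 27.6 CPM against a high-fat range of 20.4 to 35.7.

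Some genes of fat burning were higher on the ketogenic diet once replicate 5 was set aside. With all 5 libraries 0 of 10 genes of ketogenesis and ketone export, 0 of 22 of the carnitine shuttle and mitochondrial beta-oxidation and 0 of 34 of peroxisomal oxidation and other PPAR-alpha targets passed. Without replicate 5, 2, 2 and 2 rose and 1, Me1, fell, against 0.938% higher and 1.25% lower over all genes. The medians were 0.05, 0.32 and 0.23, and 21 of the 22 beta-oxidation values were positive. Bdh1, which interconverts ketone bodies, stood at 271, 258, 253, 293 and 294 CPM in high-fat and 441, 452, 394 and 371 CPM in ketogenic replicates 1 to 4 (difference 0.60 ± 0.12 SE in log2 units, adjusted p = 0.0136), with 215 CPM in replicate 5. Acadm, which oxidizes medium-chain fatty acids, stood at 374, 431, 397, 460.3 and 499.8 CPM against 605, 702, 681 and 609 CPM (difference 0.59 ± 0.12 SE in log2 units, adjusted p = 0.0152), with 365 CPM in replicate 5. In both genes replicate 5 was the lowest of the 10 libraries. Acat1, a thiolase of ketone synthesis and breakdown, rose 1.46-fold, Acadl, a long-chain dehydrogenase, 1.38-fold, Acaa1a, a peroxisomal thiolase, 1.44-fold and Slc27a1, a fatty acid transporter, 1.85-fold, with adjusted p = 0.0266, 0.0284, 0.0459 and 0.0278. The calls of Bdh1 and Acadm were lost without ketogenic replicate 2 (adjusted p = 0.0555 and 0.0576), and those of the other 4 genes in 5 to 7 of the 9 refits (adjusted p up to 0.133), among them those without high-fat replicate 2 or ketogenic replicate 2 or 4.

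Cpt1a, Fgf21 and Pdk4, which respond to fasting, did not pass without replicate 5. Cpt1a, which admits fatty acids to mitochondria, had 625 ± 90.5 CPM in high-fat livers against 675 ± 83.8 CPM in ketogenic replicates 1 to 4 (log2 fold change 0.11, adjusted p = 0.813). The fasting hormone Fgf21 had 4.98 ± 1.68 against 6.42 ± 3.29 CPM (log2 0.36, adjusted p = 0.629), and Pdk4, which shuts pyruvate dehydrogenase, 22.5 ± 9.76 against 14.2 ± 4.63 CPM (log2 -0.66, adjusted p = 0.428). Of 30 genes of lipid storage and uptake 0 passed in either comparison. Cidec, which enlarges lipid droplets, had 96.8 ± 38.9 against 91.5 ± 6.74 CPM, and Cd36, a fatty acid uptake receptor, 248 ± 72.9 against 207 ± 65.6 CPM.

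In cholesterol synthesis, 2 of 26 genes rose without replicate 5, against 0.938% higher over all genes, and 0 passed with it. Srebf2, the regulator of the pathway, stood at 78.7, 57.2, 55.2, 47.7 and 50.1 CPM in high-fat and 85.2, 93.6, 90.1 and 93.5 CPM in ketogenic replicates 1 to 4 (difference 0.65 ± 0.13 SE in log2 units, adjusted p = 0.0152), and at 35.6 CPM in replicate 5, the lowest of all. Hmgcs1, an early enzyme of the pathway, rose 1.77-fold (log2 0.82, adjusted p = 0.0367). The call of Srebf2 was lost without ketogenic replicate 2 or 4 (adjusted p up to 0.0632), and that of Hmgcs1 held only without high-fat or ketogenic replicate 1 (up to 0.109). Cyp7a1, which commits cholesterol to bile acids, had 112 ± 84.3 against 146 ± 50.2 CPM (log2 0.39, adjusted p = 0.789). Of 27 genes of cholesterol efflux and lipoproteins 2 fell without replicate 5, against 1.25% lower over all genes, and 0 passed with it. Pltp, which moves phospholipid between lipoproteins, stood at 65.4, 107, 126, 81.1 and 100.4 CPM against 38.9, 42.1, 42.6 and 42.3 CPM (difference -1.21 ± 0.20 SE in log2 units, adjusted p = 0.00642), with 98.7 CPM in replicate 5. Tm6sf2, needed to load lipid on secreted particles, fell from 25.1 ± 4.57 to 14.5 ± 3.79 CPM (log2 -0.80, adjusted p = 0.0279). Pltp kept its call in all 9 refits, and Tm6sf2 lost its call without high-fat replicate 2 or 5 or ketogenic replicate 3 or 4 (adjusted p up to 0.119).

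Several genes of antigen presentation and of Kupffer cells fell without replicate 5, and replicate 5 had the highest median level of all 10 libraries in both lists. In bulk tissue fewer cells of a type and less RNA per cell cannot be told apart. Of 11 genes of MHC class II antigen presentation 5 fell without replicate 5, against 1.25% of all genes (median -0.78), and 0 passed with it (median 0.10). H2-Ab1, a class II chain, stood at 59.2, 50.1, 48.9, 72.1 and 68.2 CPM on the high-fat diet, at 35.1, 21.8, 29.5 and 18.2 CPM in ketogenic replicates 1 to 4 (difference -1.19 ± 0.21 SE in log2 units, adjusted p = 0.00952) and at 178 CPM in replicate 5. Cd74, the invariant chain, stood at 134, 171, 163, 194 and 181 CPM, at 117, 77.4, 95.9 and 67.0 CPM (difference -0.92 ± 0.17 SE in log2 units, adjusted p = 0.0127) and at 518 CPM. Replicate 5 exceeded every other library in both genes, and with it their log2 fold changes were -0.08 and 0.06, the first turning to 0.10 with library totals in place of TMM. H2-Aa and H2-Eb1, further class II chains, fell to 0.472 and 0.485 times, and Ifi30, a lysosomal reductase of antigen processing, to 0.642 times the high-fat level. Of the 5 calls, 1 was left without ketogenic replicate 4 and 2 without ketogenic replicate 2; that of H2-Ab1 held in all 9 refits, and the highest adjusted p of the other 4 genes ran from 0.0528 to 0.123.

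Of 12 markers of resident Kupffer cells, the liver's own macrophages, 5 fell without replicate 5 (median -0.69), against 1.25% of all genes, and 0 passed with it (median -0.33). Cd5l, a secreted macrophage protein, stood at 132, 158, 184, 119 and 175 CPM against 82.4, 106, 86.3 and 75.6 CPM (difference -0.81 ± 0.14 SE in log2 units, adjusted p = 0.00776), with 323 CPM in replicate 5. Adgre1, the F4/80 antigen, stood at 23.5, 58.0, 52.8, 29.6 and 32.5 CPM against 19.3, 17.3, 13.5 and 15.2 CPM (difference -1.26 ± 0.23 SE in log2 units, adjusted p = 0.0117), with 66.7 CPM in replicate 5. In both genes replicate 5 was the highest library. The complement genes C1qa, C1qb and C1qc fell to 0.591, 0.572 and 0.580 times the high-fat level. The summed level of the 12 markers was 489 to 762 CPM in high-fat livers, 351 to 472 CPM in ketogenic replicates 1 to 4 and 1004 CPM in replicate 5, and none of the 12 was at 0. Without ketogenic replicate 4 or 3, 2 and 3 of the 5 calls were left. Cd5l and C1qb held in all 9 refits, and Adgre1 lost its call without ketogenic replicate 3 or 4 (adjusted p up to 0.0564). C1qc lost its call without ketogenic replicate 4 (adjusted p = 0.0643), and C1qa in 6 of 9 refits (up to 0.107). Of 16 markers of macrophages that derive from monocytes or take up lipid, 1 fell without replicate 5 and 0 passed with it: Spp1 (osteopontin, log2 -0.97, adjusted p = 0.0471), a call kept only without high-fat or ketogenic replicate 1 (adjusted p up to 0.128). Trem2, a defining receptor of lipid-associated macrophages, had 4.91 ± 2.33 against 3.93 ± 1.95 CPM and 24.9 CPM in replicate 5.

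Replicate 5 also had the highest median level of all 10 libraries for T and NK cell markers (1.52 on the log2 scale above the high-fat mean), B and plasma cell markers (1.33), cholangiocyte markers (0.92), inflammatory cytokines (0.99), matrix genes (0.81), cell cycle genes (0.88) and injury genes (0.66), and the lowest for hepatocyte markers (-0.63). The part of these other cell types in where replicate 5 lies was not tested. The 9 tested T and NK cell markers were low, with a sum of 3.67 to 8.06 CPM in high-fat livers and 21.6 CPM in replicate 5. Over all genes tested without replicate 5, 1.25% were lower and 0.938% higher. Without it, 2 of 27 inflammatory genes fell, Cxcl16, a chemokine (log2 -0.72, adjusted p = 0.0102), and Tgfb1, a growth factor of scar formation (log2 -0.63, adjusted p = 0.0211). Of 41 matrix genes Tgfb1 and Vim, a filament of mesenchymal cells and leukocytes (log2 -0.58, adjusted p = 0.0211), fell, and Col1a1, the main fibrillar collagen, had 36.9 ± 8.35 against 32.7 ± 17.2 CPM, with 94.4 CPM in replicate 5 (log2 -0.18, adjusted p = 0.901). Rrm2, which makes deoxynucleotides, was the 1 of 28 cell cycle genes that fell (log2 -0.96, adjusted p = 0.0139). Rgs5, a pericyte gene (log2 -0.75, adjusted p = 0.0456), and Pecam1, an endothelial adhesion protein (log2 -0.63, adjusted p = 0.0261), were the only calls among 13 stellate and 12 sinusoidal endothelial markers. Cxcl16 and Rrm2 lost their calls without ketogenic replicate 4, Vim without high-fat replicate 3 or 5 or ketogenic replicate 2 or 4. Tgfb1, Rgs5 and Pecam1 lost theirs in 5, 8 and 6 of 9 refits, ketogenic replicates 2, 3 and 4 and high-fat replicates 2 and 3 among those left out (adjusted p up to 0.137 for Rgs5). Ifi27, an interferon-induced gene, was the 1 of 33 interferon genes that rose past the threshold (log2 0.997, adjusted p = 0.0211). Its call was lost without high-fat replicate 2 or ketogenic replicate 2, 3 or 4. Replicate 5 held 93.3 CPM of it, inside the high-fat range. With all 5 ketogenic libraries 0 of the 33 passed, and 29 had positive log2 fold changes (list median 0.28). Replicate 5 had the highest median of this list among all 10 libraries (0.49).

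**Figure D5:**
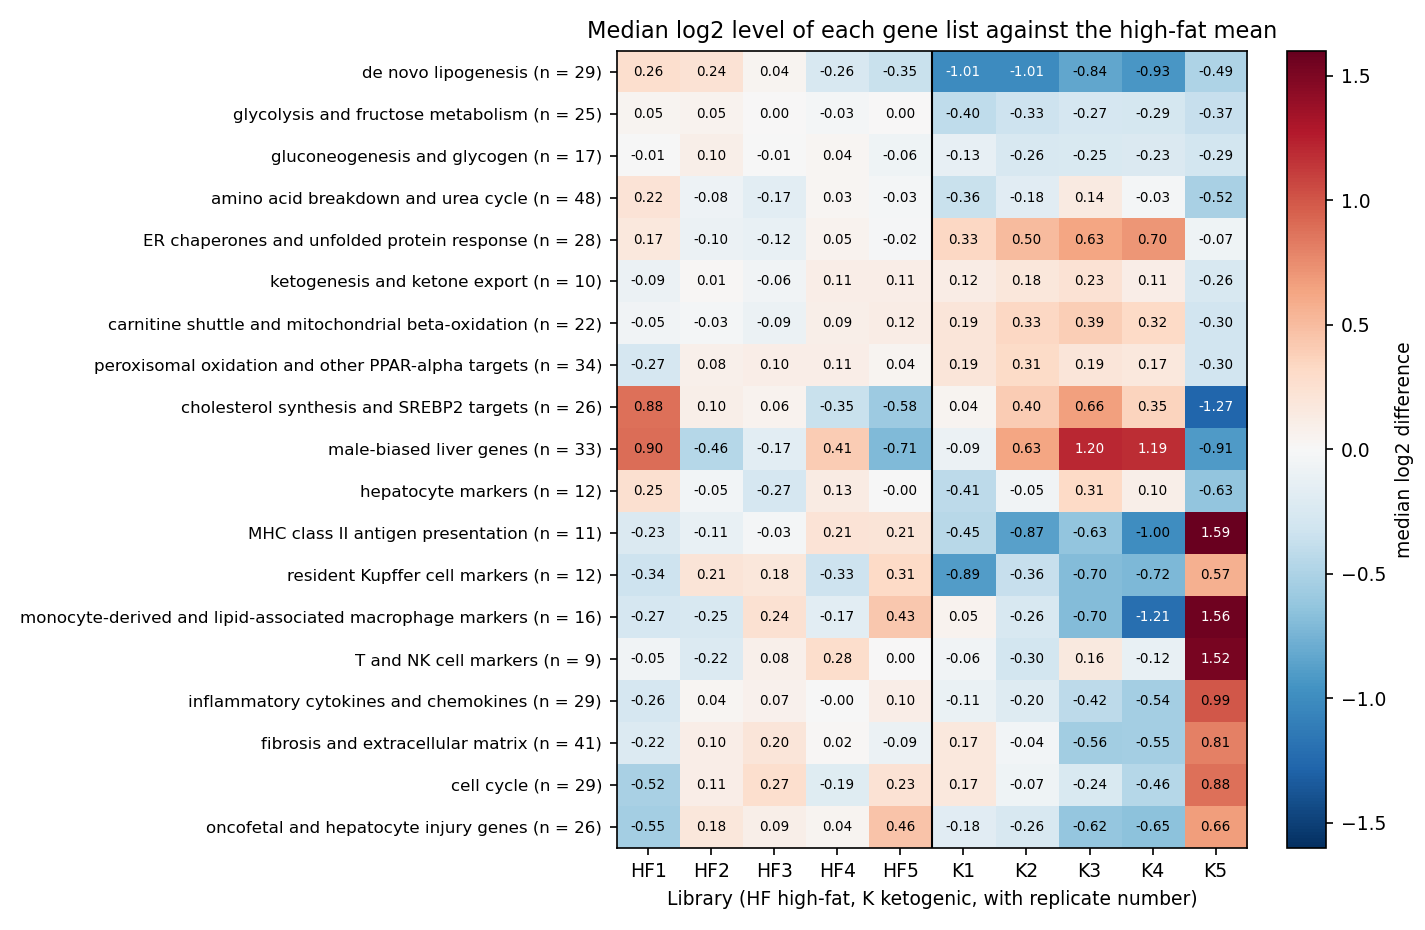
Median log2 difference from the high-fat mean of the tested genes of 19 lists (rows, with the number of genes) in each library (columns, HF high-fat and K ketogenic with replicate number). Lipogenesis is lower in K1 to K4 (-1.01 to -0.84) and ER chaperones higher (0.33 to 0.70), while K5 stands out for MHC class II genes (1.59), macrophage markers and cholesterol synthesis (-1.27).

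Among 30 genes that handle foreign compounds, 2 rose and 2 fell without replicate 5, against 0.938% higher and 1.25% lower over all genes, and 0 passed with it. Nr1i3, the receptor CAR that controls them, stood at 222, 173, 310.0, 255 and 283 CPM in high-fat and 452, 389.8, 451 and 446 CPM in ketogenic replicates 1 to 4 (difference 0.81 ± 0.15 SE in log2 units, adjusted p = 0.00996), with 222 CPM in replicate 5. Its call held in all 9 refits. Cyp1a2, a pericentral P450, stood at 447, 157, 168, 208 and 193 CPM against 547, 406, 592 and 512 CPM (difference 1.13 ± 0.26 SE in log2 units, adjusted p = 0.0363). High-fat replicate 1 lay inside the ketogenic range, and the call held only without it (adjusted p up to 0.107). Cyp3a25 fell to 0.684 times the high-fat level (log2 -0.55, adjusted p = 0.0321), a call lost in 7 of 9 refits (adjusted p up to 0.138) and kept without high-fat or ketogenic replicate 1. Cyp3a59, the remaining call of the list and named after its values were seen, fell as well (log2 fold change -1.26, adjusted p = 0.0441). Copies of this family share sequence and their counts are uncertain. Of 33 genes higher in male liver 0 passed with replicate 5 and 1 rose without it, Susd4, a complement regulator (log2 1.81, adjusted p = 0.0422), whose call held only without high-fat or ketogenic replicate 1 (adjusted p up to 0.133), with a list median of 0.68. High-fat livers were uneven here, with list medians from -0.71 to 0.90 and replicate 1 highest, and replicate 5 was the lowest of all at -0.91. Of 24 genes higher in female liver Cyp17a1 alone fell. Igf1, the growth factor under growth hormone, had 432 ± 48.9 against 454 ± 82.2 CPM.

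Hepatocytes differ along the lobule from portal vein to central vein. Of 20 pericentral genes, Cyp1a2 and Notum rose and Slc1a4 fell without replicate 5, and 0 passed with it. Over all genes 0.938% were higher and 1.25% lower without replicate 5. Notum, a secreted inhibitor of Wnt signals, stood at 30.5, 17.3, 21.9, 23.97 and 25.5 CPM against 38.6, 40.6, 49.3 and 49.9 CPM (difference 0.90 ± 0.15 SE in log2 units, adjusted p = 0.00642), with 18.4 CPM in replicate 5. Slc1a4, an amino acid transporter, fell to 0.431 times (log2 -1.21, adjusted p = 0.0256). Of 19 periportal genes 3 fell and 1 rose without replicate 5, against 1.25% lower and 0.938% higher over all genes, and 0 passed with it. Aldh1b1, a mitochondrial aldehyde dehydrogenase, stood at 92.2, 106, 117, 128 and 101 CPM against 61.7, 52.9, 55.5 and 44.5 CPM (difference -1.02 ± 0.12 SE in log2 units, adjusted p = 6.45e-04), with 93.5 CPM in replicate 5. Hsd17b6, a steroid dehydrogenase, rose 1.95-fold (log2 0.96, adjusted p = 0.0193), and all 5 ketogenic livers lay above the high-fat livers. The others, Ass1 and Gls2, also belong to nitrogen metabolism, in which 4 of 48 genes fell and 0 rose without replicate 5, against 1.25% lower over all genes, and 0 passed with it. Ass1, a urea cycle enzyme, stood at 3699, 3104, 2737, 3208 and 3015 CPM against 1254, 1406, 2276, 1942 and 1810.3 CPM in ketogenic replicates 1 to 5 (log2 -0.87, adjusted p = 0.0221 without replicate 5 and -0.86, adjusted p = 0.0813 with it). Got1, a transaminase, stood at 245, 202, 176, 159 and 193 CPM against 56.2, 72.4, 109.6, 74.4 and 134 CPM (log2 -1.32, adjusted p = 0.0180 without replicate 5 and -1.12, adjusted p = 0.142 with it). Replicate 5 was within the other ketogenic values of Ass1, and for Got1 it lay between the diets, nearer to the high-fat mean on the log2 scale. Gls2, liver glutaminase, and Kynu, of tryptophan breakdown, fell to 0.590 and 0.638 times (log2 -0.76, adjusted p = 0.0237 and log2 -0.65, adjusted p = 0.00653). Notum, Aldh1b1 and Kynu kept their calls in all 9 refits. Got1, Gls2 and Ass1 lost theirs without ketogenic replicate 2 or 4, Ass1 also without high-fat replicate 2. Hsd17b6 lost its call without high-fat replicate 2 or ketogenic replicate 3 or 4, and Slc1a4 in 6 of 9, with adjusted p up to 0.101 for Slc1a4. Among libraries numbered 13 and above without ketogenic replicate 5, where 851 genes were called, 1 of 48 nitrogen genes fell and 1 rose.

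Of 26 hepatokines, proteins the liver secretes, 2 rose and 2 fell without replicate 5, against 0.938% higher and 1.25% lower over all genes, and 0 passed with it. Tsku, a secreted modulator of cholesterol and thermogenesis, stood at 223, 125, 154, 148 and 147 CPM in high-fat and 351, 244, 312 and 314 CPM in ketogenic replicates 1 to 4 (difference 0.94 ± 0.15 SE in log2 units, adjusted p = 0.00486), with 90.9 CPM in replicate 5. Igfbp2, a binding protein of insulin-like growth factors, stood at 341, 114, 93.1, 160.2 and 158 CPM against 369, 709, 768 and 560.2 CPM (difference 1.79 ± 0.34 SE in log2 units, adjusted p = 0.0180), with 174 CPM in replicate 5. Hamp2, a paralog of the iron hormone hepcidin, stood at 21.4, 47.9, 17.9, 28.9 and 68.4 CPM against 1.78, 1.45, 1.48 and 1.38 CPM (difference -4.59 ± 0.55 SE in log2 units, adjusted p = 0.00215), with 21.5 CPM in replicate 5. The 4 ketogenic Hamp2 values were alike and low, and replicate 5 was inside the high-fat range. Fst, the activin inhibitor follistatin, fell to 0.461 times (log2 -1.12, adjusted p = 0.0221), and Slc40a1, the iron exporter ferroportin, to 0.679 times (log2 -0.56, adjusted p = 0.0325). Tsku and Hamp2 kept their calls in all 9 refits, Igfbp2 lost its call without high-fat replicate 5 or ketogenic replicate 2, 3 or 4, Fst in 4 and Slc40a1 in 7 of 9, with adjusted p up to 0.138 for Slc40a1. Reads of Hamp2 and its paralog could be shared, and how they were counted is not known here. Bhlhe41, a clock repressor, was the 1 of 21 clock genes called without replicate 5, with 0 called with it (log2 1.54, adjusted p = 0.0494); all 5 ketogenic livers lay above the high-fat ones, and its call held only without high-fat replicate 1 or 3 (adjusted p up to 0.173).

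Other large changes without replicate 5 were in genes of low level. Ntrk2, a neurotrophin receptor, stood at 7.17, 14.3, 15.2, 15.4 and 9.35 CPM in high-fat and 1.15, 0.435, 0.562 and 0.276 CPM in ketogenic replicates 1 to 4 (difference -4.31 ± 0.35 SE in log2 units, adjusted p = 1.45e-05), with 28.7 CPM in replicate 5, the highest of all. Mmd2, a membrane protein, stood at 10.1, 11.3, 10.4, 6.96 and 8.51 CPM against 1.66, 1.26, 0.664 and 0.505 CPM (difference -3.19 ± 0.33 SE in log2 units, adjusted p = 1.08e-04), with 7.25 CPM in replicate 5. A4gnt, a glycosyltransferase, stood at 2.43, 4.44, 4.28, 2.55 and 1.64 CPM against 0.1698, 0, 0.0511, 0.0459 and 0.989 CPM in ketogenic replicates 1 to 5 (log2 -5.33, adjusted p = 0.00215), the 5 ketogenic values all below the high-fat ones. Ntrk2, Mmd2, A4gnt and Slc2a4 kept their calls in all 9 refits. Gprc5b, an orphan receptor, and Ppbp, a platelet chemokine, fell 8.59-fold and 8.34-fold (adjusted p = 0.0176 and 0.0440), the first call lost without ketogenic replicate 2, 3 or 4 and the second in 7 of 9 refits. Upward, Sult5a1, a sulfotransferase, rose 3.98-fold (log2 1.99, adjusted p = 0.0483), Kcnt2, a potassium channel, 2.704-fold (log2 1.43, adjusted p = 0.0432), Zfp9, a zinc finger protein, 3.21-fold (log2 1.68, adjusted p = 0.00648) and Cd276, an immune checkpoint molecule, 2.36-fold (log2 1.24, adjusted p = 0.0284). Zfp9 and Cd276 did not overlap between the diets with replicate 5 included, and Zfp9 kept its call in all 9 refits; Cd276, Sult5a1 and Kcnt2 lost theirs in 5, 6 and 7 (adjusted p up to 0.150 for Kcnt2).

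Markers of other tissues differed between libraries. Of 18 tested pancreatic acinar markers 0 passed in edgeR's test in either comparison, and all 18 had negative log2 fold changes. Their summed level was 136 to 950 CPM in high-fat livers against 7.10 to 24.3 CPM in ketogenic replicates 1, 3, 4 and 5 and 440.2 CPM in replicate 2. Of 8 erythroid markers 0 passed, with 527 to 2132 CPM in high-fat and 243 to 693 CPM in ketogenic livers. Their part in the results was not tested. In both comparisons 0 of 25 genes of bile acid handling, 0 of 23 of the ATF4 amino acid response and 0 of 37 nuclear genes of oxidative phosphorylation passed, as did 0 of 13 mitochondrially encoded mRNAs, 0 of 30 acute phase genes and 0 of 23 each of ceramide and of phospholipid synthesis.

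Where a list had no call with all 5 ketogenic libraries, its tested gene with the highest mean CPM was looked up. By this rule none of these genes could have passed. Among hepatocyte genes the log2 fold change was -0.08 for Alb (albumin), -0.14 for Apoe, a lipoprotein component, -0.01 for Fabp1, which binds fatty acids, and 0.09 for complement C3. Cps1, which admits ammonia to the urea cycle, had -0.30, Bhmt, of methionine metabolism, -0.11, and Cyp2e1, a pericentral P450, 0.43. Acaa2, of mitochondrial fatty acid oxidation, had 0.06, and P4hb, an ER disulfide isomerase, 0.18. The values of Ccnd1 (cyclin D1, 0.75), Hbb-bs (beta globin, -1.54) and Ctrb1 (pancreatic chymotrypsinogen, -2.08) lay farther from 0, with adjusted p = 0.219, 0.154 and 0.811.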

How the data were processed

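Poly(A) RNA of mouse liver was sequenced after Trizol and chloroform extraction with a directional kit, per the labels' protocols. The deposited table holds raw read counts per gene, whole numbers with no normalization by the authors. Per the submitters' processing notes, cutadapt 1.16, STAR 2.7.9a, featureCounts 1.6, DESeq2 1.36.0 and GRCm39 were used; neither the strand setting nor the rule for multi-mapping reads is given in the sources used here, and counts of overlapping, antisense and near-identical genes are uncertain. Total counts per library ranged from 16329425 to 25349148 and set the counting error of low genes.

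Libraries were grouped by the diet in their labels. The members and gene lists were chosen with earlier results of these data known. Genes were kept by edgeR's filterByExpr (minimum count 10, minimum total 15), scaled by TMM and tested with edgeR 4.0.16 (R 4.3.3, limma 3.58.1), with robust dispersions, glmQLFit and glmQLFTest over the 14 libraries of 3 diets, Benjamini-Hochberg adjustment and a threshold of 0.05. The SE of a log2 fold change was its size divided by the square root of F. Symbols were found for 91.4% of gene identifiers and 98.2% of tested ones.

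Named were, of called genes with a symbol of a known gene, a mean of at least 1 CPM and no overlap between diets, the 12 that rose most and the 12 that fell most. Per list, up to 3 called members were added in order of adjusted p, or else its most abundant tested member, and 20 genes were listed whatever their result; some genes these rules select are not reported here. The same rule was applied without ketogenic replicate 5, and other called members of the lists are named beside it. Alternatives were library totals, DESeq2 1.42.0, other filters, fewer libraries, a replicate block, a term for the run of library numbers, and each library left out; those run without ketogenic replicate 5 were chosen after seeing the data. The test was tried on simulated data. The excluded control library was left out.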

Additional observations from a re-analysis of the deposited data

Results flagged for a closer look

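A library was looked at again where the gap to its nearest neighbour in the group of 5 took more of the group's range than Dixon's 95% limit. This held in 56 of 322 groups checked (17.4%), where chance gives about 1 in 20, and 40 of the 56 came from ketogenic replicate 5. Genes chosen because ketogenic replicates 1 to 4 lie close together tend to set replicate 5 apart by that choice.

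Ketogenic replicate 5 stood high above the other ketogenic libraries for Ntrk2 (28.7 CPM), Hamp2 (21.5 CPM), Pnpla3 (3.30 CPM), A4gnt (0.989 CPM), Scd1 (20821 CPM), Elovl6 (294 CPM), Pltp (98.7 CPM), Gpi1 (226 CPM), Cxcl16 (29.4 CPM), Tgfb1 (22.4 CPM), H2-Ab1 (178 CPM), H2-Eb1 (192 CPM), Cd74 (518 CPM), Ifi30 (37.4 CPM), Vim (78.9 CPM), Cd5l (323 CPM), C1qb (124 CPM), C1qc (119.6 CPM), C1qa (103 CPM), Adgre1 (66.7 CPM) and Fasn (1144 CPM). It stood far below them for Sult5a1 (2.38 CPM), Bdh1 (215 CPM), Acadm (365 CPM), Srebf2 (35.6 CPM), Hmgcs1 (106 CPM), Sec61a1 (96.5 CPM), Nr1i3 (222 CPM), Cyp1a2 (133 CPM), Susd4 (2.53 CPM), Tsku (90.9 CPM) and Notum (18.4 CPM). In the median level of a list, as a log2 difference from the high-fat mean, it was the highest for inflammatory cytokines and chemokines (0.99), MHC class II antigen presentation (1.59) and T and NK cell markers (1.52), and the lowest for ketogenesis and ketone export (-0.26), carnitine shuttle and mitochondrial beta-oxidation (-0.30), peroxisomal oxidation and other PPAR-alpha targets (-0.30), the list of P450 enzymes and other CAR/PXR targets (-0.25) and pericentral hepatocyte genes (-0.38).

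The other 16 cases were spread over 6 libraries. High-fat replicate 1 was the highest for Gls2 (447 CPM), Sec61a1 (160.2 CPM) and Cyp1a2 (447 CPM). High-fat replicate 1 was the lowest for Rgs5 (49.4 CPM) and Cidec (31.6 CPM). High-fat replicate 1 was the lowest in the median level of peroxisomal oxidation and other PPAR-alpha targets (-0.27), lipid droplets, lipid uptake and lipases (-0.27) and inflammatory cytokines and chemokines (-0.26). High-fat replicate 3 was the highest for Mlxipl (314 CPM). High-fat replicate 3 was the lowest in the median level of growth hormone and IGF1 axis (-0.17). High-fat replicate 5 was the highest for Acadl (274 CPM) and C1qb (96.1 CPM). Ketogenic replicate 2 was the highest for Slc27a1 (26.8 CPM). Ketogenic replicate 2 was the highest in the median level of pancreatic acinar markers (0.38). Ketogenic replicate 3 was the lowest in the median level of insulin signalling and FOXO1 targets (-0.39). Ketogenic replicate 4 was the lowest in the median level of ATF4 amino acid response (-0.21).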

How the results depend on the processing

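With all 5 ketogenic libraries the 9 calls (1 higher, 8 lower) became 15 (4 higher) with library totals, 173 (62 and 111) with DESeq2, 26 (5 and 21) with no filter on low counts, 40 (7 and 33) among library numbers up to 9 and 0 among those numbered 13 and above, and 636 (278 and 358) with ketogenic replicate 5 and high-fat replicate 1 both left out. With only the 10 libraries in the fit, and with the replicate block, 1 gene was called, lower, and 0 were higher. Leaving out each library in turn gave 1 to 315 calls, 0 to 135 higher and 1 to 180 lower. Without ketogenic replicate 5, the 315 calls (135 and 180) became 866 (400 and 466) with DESeq2, 851 (359 and 492) among library numbers 13 and above, and 26 (2 and 24) with the replicate block; leaving out a further library gave 95 to 636 calls, 32 to 278 higher and 63 to 358 lower. Why these counts moved was not tested; the cause was not tested for the reversals below either.

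Replicate numbers did not pair the samples: same-numbered libraries had correlations of -0.40 to 0.21, 2 of 5 over 0.1, and 1 high-fat and 0 ketogenic libraries correlated best with their own number. The log2 fold changes with all 5 ketogenic libraries that changed sign were all of genes that did not pass. Reversed with library totals were H2-Ab1 (0.099) and Spp1 (0.087). Reversed among library numbers 13 and above were H2-Ab1 (0.26), Spp1 (0.011), Cd5l (0.020), Cpt1a (-0.14) and Fgf21 (-0.050). Reversed with the replicate block were H2-Eb1 (-0.54), H2-Aa (-0.58), Cd74 (-0.46) and Cidec (0.068). Reversed with a term for the run of library numbers were H2-Eb1 (-0.00055), H2-Aa (-0.034) and Cd74 (-0.018). Reversed among library numbers up to 9 were H2-Eb1 (-0.76), H2-Aa (-0.80), Cd74 (-0.65), Cyp7a1 (-0.66), Cidec (0.27), Cd36 (0.22), Pck1 (-0.076) and Igf1 (-0.090). Reversed with ketogenic replicate 5 and high-fat replicate 1 both left out were H2-Eb1 (-1.10), H2-Aa (-1.13), Cd74 (-0.99), Mlxipl (-0.038), Col1a1 (-0.29) and Trem2 (-0.16). Over the refits without 1 library each, sign changes occurred within the ranges of H2-Ab1 (-1.19 to 0.14), H2-Eb1 (-1.04 to 0.32), H2-Aa (-1.08 to 0.29), Cd74 (-0.92 to 0.26), Spp1 (-0.97 to 0.16), Mlxipl (-0.017 to 0.32), Cpt1a (-0.052 to 0.11), Cidec (-0.28 to 0.042), Pck1 (-0.19 to 0.27), Col1a1 (-0.18 to 0.49), Trem2 (-0.32 to 0.99) and Igf1 (-0.0040 to 0.14). Depth limits genes near 0 such as Chrna4 and Lrtm1.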

Other observations

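The genes below were chosen after their values were seen, without ketogenic replicate 5 in the test. Gm15441, a predicted gene, stood at 0.116, 0.237, 0.658, 0.688 and 1.09 CPM in high-fat replicates 1 to 5, at 5.77, 10.3, 7.20 and 13.3 CPM in ketogenic replicates 1 to 4 and at 0.476 CPM in replicate 5, with 0.156 ± 0.175 CPM in control livers (SD, n = 4). Its log2 fold change was 3.97 (adjusted p = 6.78e-04) in edgeR's quasi-likelihood test, and 3.67 (adjusted p = 0.0826) with all 5 ketogenic libraries. It is known as an antisense transcript of Txnip, a regulator of thioredoxin, which had 104.6 ± 25.7 CPM on the high-fat diet and 102.6 ± 15.4 CPM on the ketogenic diet (n = 5 each, log2 fold change -0.03, adjusted p = 0.983). Without the strand setting, reads of both genes could not be told apart where they overlap.

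A further 9 of the 315 genes called without ketogenic replicate 5 were picked one by one, with no list or count behind them. Fkbp11, a prolyl isomerase of the ER, was higher by 1.18 (adjusted p = 0.0471) in log2 units. Ficd, which modifies BiP, had 0.96 (adjusted p = 0.0107), Sec23b, a coat protein of ER export vesicles, 0.73 (adjusted p = 0.0168), Tmed3, a cargo receptor, 0.86 (adjusted p = 0.0221), and Stt3a, a subunit that attaches glycans, 0.47 (adjusted p = 0.0170). Csf1r, the receptor of macrophage growth factor, had -0.67 (adjusted p = 0.0477), Itgb2, a leukocyte integrin, -0.95 (adjusted p = 0.0246), Fcer1g, a signalling chain of Fc receptors, -0.79 (adjusted p = 0.0456), and Mpeg1, a pore protein of phagocytes, -0.84 (adjusted p = 0.0144). When 1 further library was left out, Ficd and Mpeg1 lost their calls without ketogenic replicate 4 alone, and Sec23b and Stt3a in 3, Tmed3 in 5, Itgb2 in 6, Fkbp11 in 7 and Csf1r and Fcer1g in 8 of 9 refits, each of them without high-fat replicate 2 and ketogenic replicate 4 (adjusted p up to 0.144). Gm15441 kept its call in all 9. Ketogenic replicate 5 held 3.37 CPM of Fkbp11 against 4.02 ± 1.68 CPM in high-fat livers, and 132 CPM of Csf1r against 78.9 ± 20.9 CPM (SD, n = 5).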
